A study of Mus musculus with 49 samples.

Results

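The 10 transcription factor genes *Tbx21*, *Eomes*, *Runx3*, *Prdm1*, *Id2*, *Id3*, *Tcf7*, *Bcl6*, *Zeb2*, and *Bach2* were followed as a named set, out of 23992 gene symbols measured by RNA-seq. They were picked by name for their place in the effector and memory programs of CD8+ T cells, with earlier results of these data known. Shares of all genes are therefore set beside their counts as a description. The longest transcript of each symbol was read. CD8+ T cells came from the spleens of 2 lines of mice, in which the tyrosine that receptor-bound JAK kinases phosphorylate was replaced by phenylalanine in STAT5A (Y694F) or in STAT5B (Y699F). The homozygous knockin (KI) mice of each line, made by gene editing and backcrossed to C57BL/6J, were set against wild-type (WT) littermates of the same line, both sexes, 8 to 24 weeks old. Cells were taken by negative isolation and were cultured with recombinant human IL-2 at 500 IU/ml during 4, 24, or 48 hr. Together with cells collected at the start (0 hr, no IL-2), this gives 16 groups of line, genotype, and time. No group was cultured without IL-2 for 4, 24, or 48 hr. In changes from 0 hr, IL-2 and time in culture therefore cannot be told apart. The mutations are in the germ line, so every cell of a KI mouse carried them. Whether the cells of several mice were pooled for a library, and whether libraries of a group came from separate mice, is not stated in the sources used here, so p-values measure the spread between these libraries, which may be technical.

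Each group had 3 libraries, and 1 of the 48 was left out, replicate 3 from KI cells of the *Stat5a* line after 4 hr, which had 1028503 reads on the longest transcripts, 5.68% of its mapped reads. The other 47 had 17369537 to 60202776 reads, with a median of 41412147 and 44.9% to 84.4% of the mapped reads. The library with 17369537 reads and 44.9% was replicate 2 from WT cells of the *Stat5a* line after 4 hr. It also held 26.7 RPKM of *Id2*, against 59 and 73.4 in the other two libraries of its group, and values that rest on it are given with that in view. RPKM, used here for levels, is the number of reads per kilobase of transcript, corrected for how many reads were mapped. A floor of 3 counts was 0.0498 to 0.173 CPM (reads scaled to library size), and all 10 genes passed the filter on low counts.

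After antigen or cytokine stimulation, CD8+ T cells can become short-lived effector cells that kill and secrete interferon-γ, or long-lived memory cells that keep the capacity to divide. T-bet (encoded by *Tbx21*) and Eomesodermin drive cytotoxic genes, RUNX3 sets up the CD8 lineage and its cytotoxic loci, and Blimp-1 (*Prdm1*), ID2, and ZEB2 are associated with the effector fate. TCF1 (*Tcf7*), ID3, BCL6, and BACH2 are associated with naive and memory cells, and BCL6 and Blimp-1 repress each other. IL-2 acts through JAK kinases and STAT5, which binds as a dimer to palindromic DNA elements known as GAS motifs.

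The promoters of the 10 genes, taken from RefSeq (build GRCm38.p6), were searched for the GAS letters TTCNNNGAA, which read the same on both strands. Each window ran from 250 bases before to 50 bases after a start site. The windows of *Bach2*, *Prdm1*, and *Tcf7* lay within the genes and left their outermost annotated 5′ ends unsearched. All 10 genes matched, with 16 promoters. *Bcl6*, *Zeb2*, and *Bach2* held the motif, 3 of 10 genes and 5 of 16 promoters, against 8.3% of all 32851 promoters and 9.55% of all genes. The 4 matches of *Bcl6*, the gene with the largest KI difference at 48 hr in the *Stat5b* line, are shown with 10 bases on either side, 5′ to 3′ on the strand of the gene and with the motif in capitals. The upstream promoter of *Bcl6* held 1 match, before the start site and outside the gene (minus strand, chr16:23988952-23988980). The promoter of its other start site held 3, in an intron of the gene and between 168 and 88 bases before that start (minus strand, chr16:23981433-23981461, chr16:23981387-23981415, and chr16:23981353-23981381).
Bcl6, upstream start: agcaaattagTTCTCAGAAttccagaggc
Bcl6, other start, farthest match: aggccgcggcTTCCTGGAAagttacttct
Bcl6, other start, middle match: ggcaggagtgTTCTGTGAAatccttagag
Bcl6, other start, nearest match: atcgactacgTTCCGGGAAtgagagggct
The motif of *Bach2* (plus strand, chr4:32417285-32417313) lay in an intron, 140 bases before a start site inside the gene. That of *Zeb2* (minus strand, chr2:45113408-45113436) lay in sequence annotated as *Zeb2* exon, within 2 overlapping promoters. They are shown for comparison with *Bcl6*.
Bach2: ggccttgtagTTCGTTGAAgagaaacact
Zeb2: agttctccagTTCTGTGAAtggtgtgcac
A match describes these letters only and is no evidence of binding, and the other 7 genes had no match in these windows.

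The alleles change a codon and do not remove the RNA, so the levels of *Stat5a* and *Stat5b* cannot check the labels. *Stat5a* RNA in the *Stat5a* line differed between KI and WT cells by -0.21 to 0.15 on the log2 scale over the 4 times. *Stat5b* RNA in the *Stat5b* line differed by -0.19 to 0.42, the latter at 48 hr (adjusted p = 0.0011). Neither reached a 2-fold difference at any time.

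**Figure D1:**
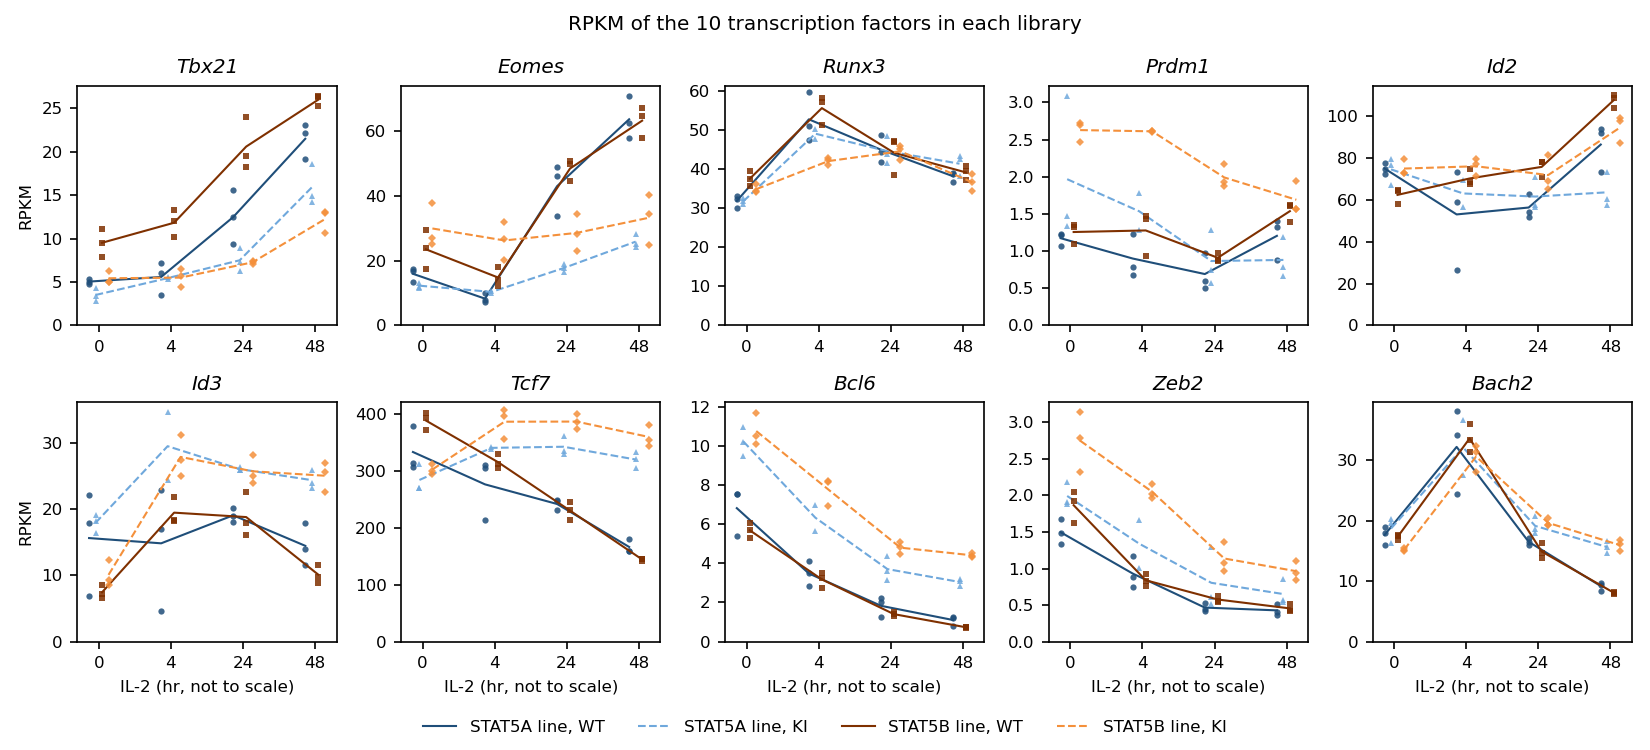
RPKM of each of the 10 transcription factors (vertical axes, linear) at 0, 4, 24, and 48 hr of IL-2 (horizontal axis, evenly spaced) in the 47 libraries. Points are libraries, lines join group means, solid for WT and dashed for KI cells. At 48 hr the *Bcl6* and *Tcf7* points of KI cells lie above all WT points in both lines, and the *Eomes* points of KI cells lie below.

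Levels per kilobase ranged over more than 2 orders of magnitude among the 10 genes. *Tcf7* was the most abundant, with a median of 312 RPKM over the 47 libraries (140.96 to 407), followed by *Id2* with 72.7 RPKM (26.7 to 110.2) and *Runx3* with 40.9 RPKM (30.1 to 59.7). *Zeb2*, *Prdm1*, and *Bcl6* had the lowest medians, at 0.94, 1.33, and 4.31 RPKM. The highest group mean of *Bcl6* was 14.8 times the lowest, against 7.67 times for *Eomes*, 7.41 times for *Tbx21*, 6.44 times for *Zeb2*, 3.8 to 4.15 times for *Bach2*, *Id3*, and *Prdm1*, 2.69 and 2.03 times for *Tcf7* and *Id2*, and 1.75 times for *Runx3*. When the 16 group means of a gene were put in order, most neighbours overlapped in their libraries: of the 15 steps of each order, *Bcl6* had 5 without overlap, *Eomes* and *Bach2* had 3 each, and the other genes had 1 or 2. The same count was not made over all genes, so whether these numbers are usual is not known.

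The isolated cells were checked against markers of the cell types a spleen preparation could hold, since bulk RNA cannot tell fewer cells of a type from less RNA per cell. The 7 CD8 T cell markers summed to 670 to 2019 RPKM, the lowest in the shallow replicate 2 from *Stat5a* line WT cells at 4 hr. They were led by *Cd8b1* (mean 350 RPKM), and 0 of the 7 differed by 2-fold between KI and WT cells at any time in either line. Smaller differences were present: in the *Stat5b* line the sums were 1474, 1625, and 1587 RPKM in WT and 1271, 1260, and 1208 RPKM in KI cells at 0 hr, and 1326, 1330, and 1364 RPKM against 2019, 1913, and 1801 RPKM at 48 hr. KI cells of the *Stat5a* line were likewise below WT cells at 0 hr (1077 to 1141 against 1202 to 1470 RPKM) and above them at 48 hr (1841 to 2018 against 1349 to 1492 RPKM), with no overlap. The difference of the 48 hr responses had a median of 0.75 over the 7 markers in the *Stat5b* line, where *Cd8b1* was called, and of 0.53 in the *Stat5a* line, where 0 were. Markers of other cells were present in every group and differed between genotypes. The 9 B cell markers, led by *Cd79a* (mean 45.3 RPKM), summed at 48 hr to 13.6, 11.7, and 14.1 RPKM in the *Stat5b* line WT libraries. The KI libraries of that line held 132.7, 129.6, and 136.9 RPKM, and all 9 markers were higher by the test (median log2 difference 3.74). In the *Stat5a* line at 48 hr the sums were 40.7, 33.1, and 13.7 RPKM in WT and 117.5, 105.9, and 126.8 RPKM in KI cells, and again all 9 were higher (median 2.05). B cell markers were higher in every KI library than in every WT library at 48 hr, in both lines.

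The 9 macrophage and monocyte markers, led by *Lyz2* (mean 23.5 RPKM), behaved likewise. Their sums at 48 hr were 3.31, 3.25, and 4.51 RPKM in WT and 95.4, 59.6, and 78.4 RPKM in KI cells of the *Stat5b* line, with 9 of 9 higher (median log2 difference 5.23). In the *Stat5a* line they were 7.41, 5.86, and 3.06 RPKM in WT and 60.8, 23, and 21.6 RPKM in KI cells, with 7 of 9 higher (median 3). The 4 plasma cell markers measured, led by *Mzb1* (mean 19.5 RPKM), were higher in KI cells in 4 of 4 cases in the *Stat5b* line (median 2.95) and in 2 of 4 in the *Stat5a* line (median 0.89). The dendritic cell list, led by *Siglech* (mean 9.04 RPKM), was higher in 6 of 6 and 5 of 6 markers, and the CD4 T cell list, led by *Cd4* (mean 7.83 RPKM), in 3 of 4 and 2 of 4. The NK cell list, led by *Tyrobp* (mean 32.6 RPKM), was mixed, with 2 of 7 higher and 2 lower in the *Stat5b* line and 1 of 7 lower in the *Stat5a* line. The lower ones in the *Stat5b* line, *Klre1* (-1.73 ± 0.27 at 48 hr) and *Klrb1c* (-1.43 ± 0.20), were called lower in KI cells at each of the 4 times, as was *Klre1* in the *Stat5a* line (-1.29 ± 0.27 at 48 hr). The summed NK markers at 48 hr were 66.5, 81.1, and 57.2 RPKM in WT and 95.4, 81.2, and 76.9 RPKM in KI cells of the *Stat5b* line, and 68.5, 86.2, and 69.5 RPKM against 90.4, 77.4, and 84.8 RPKM in the *Stat5a* line. No marker of these lists was at 0 in all libraries. The erythroid genes *Hbb-bs*, *Hba-a1*, and *Alas2* were higher in *Stat5b* KI cells at 48 hr by 4.77 ± 0.65, 4.45 ± 0.63, and 4.83 ± 0.74 (log2), and stood at 1.30 ± 0.64, 1.36 ± 0.64, and 1.55 ± 1.02 in the *Stat5a* line without passing the test. *Bcl6* is also expressed by B cells, *Prdm1* by plasma cells, *Tbx21* and *Eomes* by NK cells, and *Zeb2* and *Id2* by myeloid, dendritic, or NK cells. The part of these cells in the differences of the 10 genes was not tested.

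**Figure D2:**
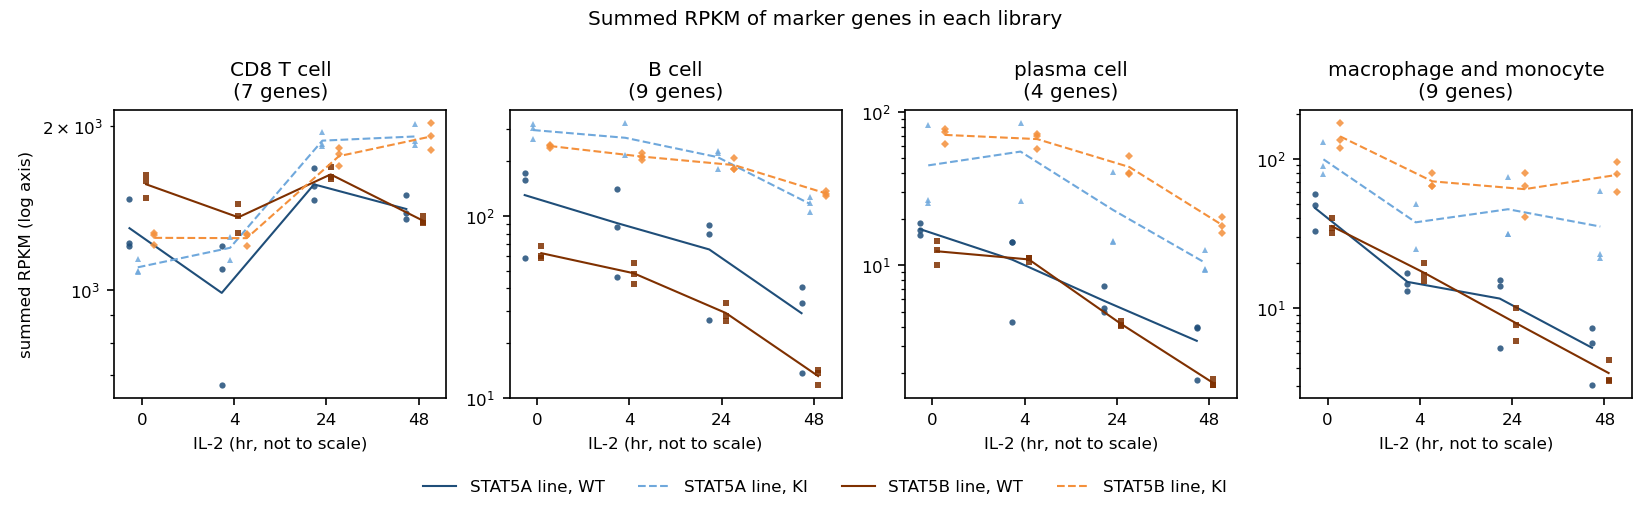
Summed RPKM (log axes) of the CD8 T cell, B cell, plasma cell, and macrophage and monocyte markers at each time of IL-2 (horizontal axis, evenly spaced). Points are the 47 libraries and lines join group means, with the 2 lines of mice in blue and in brown or orange. The B cell sums of KI cells at 48 hr (105.9 to 136.9 RPKM) lie above those of WT cells (11.7 to 40.7 RPKM).

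How the 10 factors changed in WT cells over the culture with IL-2 was asked first. By 48 hr, *Tbx21* and *Eomes* had risen and *Tcf7*, *Bcl6*, *Zeb2*, and *Bach2* had fallen in both lines, by 2.1-fold or more in each case. The 6 called genes of 10 stood beside 36.8% of all 15562 genes tested for the *Stat5a* line and 35.4% for the *Stat5b* line. Calls needed both a 2-fold change and an edgeR quasi-likelihood p that stayed at or below 0.05 after Benjamini-Hochberg adjustment. The responses began at different times. At 4 hr 0 of 10 were called in the *Stat5a* line by edgeR (background 21.6%) and 0 by DESeq2, while 6 had an unadjusted p under 0.05, as did 9795 of the 15562 genes tested. There, 3 were called once the shallow replicate 2 was left out (*Bcl6* at -1.15, *Eomes* at -1.03, and *Zeb2* at -1.06 on the log2 scale) and 2 once replicate 3 was left out (*Runx3* at 1.05 and *Bach2* at 1.03). The fit without replicate 3 kept the shallow replicate 2. *Id3* rose and *Zeb2* fell at 4 hr in the *Stat5b* line, 2 of 10 against 15.6%. That count was 4 without WT replicate 3 at 0 hr, with *Bcl6* and *Eomes* lower. *Bcl6* (-0.99 in the fit of 47 libraries) also passed with DESeq2 (-1.04) and its size factors (-1.04), with no filter, with all 48 libraries, in a fit of only the groups compared (-1.01 each), and without WT replicate 2 at 0 hr or replicate 1 or 3 at 4 hr (-1.02 to -1.07), and *Eomes* (-0.82) without WT replicate 2 at 4 hr (-1.01). At 24 hr WT cells of the *Stat5a* line had more *Tbx21* and *Eomes* and less *Bcl6* and *Zeb2*, 4 of 10 against 23%, while those of the *Stat5b* line had more *Id3* and less *Bcl6* and *Zeb2*, 3 of 10 against 22.6%. These calls do not show that the lines differed, which was not tested at 24 hr. *Tbx21* and *Eomes* changed by 0.98 and 0.91 in the *Stat5b* line (adjusted p = 6.4e-07 and 5e-05), just under 2-fold. Both passed (1.10 and 1.09) without WT replicate 2 at 0 hr. *Tbx21* also passed there without WT replicate 1 or 3 at 24 hr (1.01 and 1.06). In the *Stat5a* line *Tbx21* went to 0.97 without WT replicate 3 at 24 hr, and *Prdm1* (-0.90) then passed at -1.24. The median log2 change of the 10 genes at 48 hr was -0.17 and 0.08, against -0.04 and -0.05 for all genes. The 3 times of a line share the 0 hr libraries, so they are not independent. Over 48 hr in WT cells all 9 B cell markers were called lower (median log2 change -2.67 and -2.93 in the *Stat5a* and *Stat5b* line). So were all 9 macrophage and monocyte markers (-4.33 and -4.28) and all 6 dendritic cell markers (-3.92 and -4.32). Of the 7 NK cell markers, 3 (*Ncr1*, *Klre1*, and *Klrb1c*) were higher and 1, *Tyrobp*, lower in each line. The part of these cells in the changes of the 10 genes was not tested.

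The same question was asked in KI cells, where 4 of the 10 were called at 48 hr in each line. In *Stat5a* KI cells *Tbx21* rose and *Prdm1*, *Bcl6*, and *Zeb2* fell, 4 of 10 against 26.1% of all genes. In *Stat5b* KI cells *Tbx21* and *Id3* rose and *Bcl6* and *Zeb2* fell, 4 of 10 against 18.8%. The *Prdm1* call was lost (-0.93) without KI replicate 1 at 0 hr. The *Tbx21* call in *Stat5b* KI cells (1.03) was lost with DESeq2 or its size factors (0.95 each), in a fit of only those 2 groups, and without KI replicate 1 or 3 at 0 hr (0.92 and 0.99) or 1 or 2 at 48 hr (0.94 and 0.99). *Eomes*, *Tcf7*, and *Bach2*, which moved in WT cells of both lines, were not called in KI cells of either, although *Eomes* in *Stat5a* KI cells changed by 0.88 ± 0.18 (adjusted p = 8.6e-05), 1.84-fold. *Bach2* in *Stat5a* KI cells changed by -0.45 ± 0.10 (adjusted p = 0.00015), with libraries of the 2 times overlapping. At 24 hr the called genes were *Prdm1*, *Bcl6*, and *Zeb2*, all lower, in *Stat5a* KI cells (3 of 10 against 21.1%, with *Prdm1* at -0.93 and *Tbx21* called at 1.04 without KI replicate 1 at 0 hr) and *Id3* (higher), *Bcl6*, and *Zeb2* (lower) in *Stat5b* KI cells (3 of 10 against 15.7%). At 4 hr edgeR called 0 of 10 in *Stat5a* KI cells (background 17.8%; 0 with DESeq2, and 7 at an unadjusted p under 0.05 beside 8657 of 15562 genes) and only *Id3*, higher, in *Stat5b* KI cells (1 of 10 against 13.6%). The group of *Stat5a* KI cells at 4 hr rested on 2 libraries, and *Bcl6* and *Zeb2* were called there when replicate 1 was left out (log2 changes of -1.05 and -1.19), a fit in which 1 library stands for the group and is assumed to vary like the other groups.

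**Figure D3:**
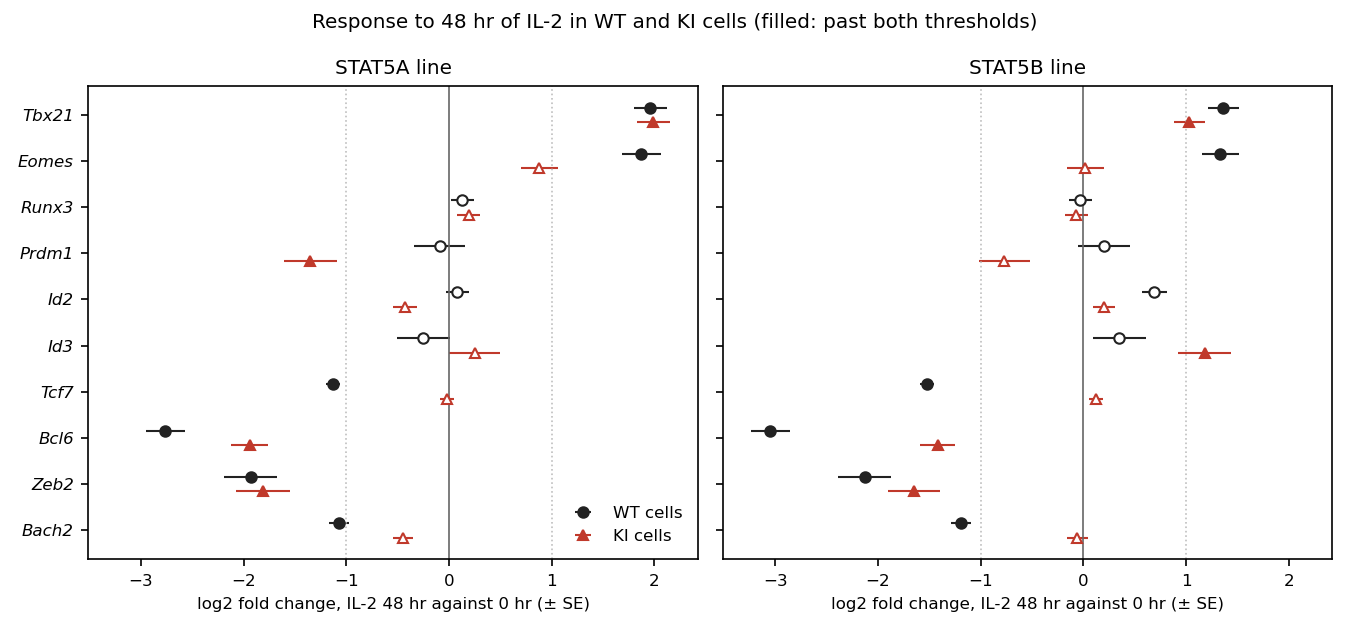
Log2 fold change (horizontal axis) of each of the 10 genes after 48 hr of IL-2 against 0 hr in WT cells (black circles) and KI cells (red triangles), for each line. Bars are ± 1 SE, filled symbols passed both thresholds, and dotted lines mark 2-fold changes. *Tcf7* lies at -1.13 and -1.52 in WT cells and at -0.02 and 0.12 in KI cells.

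Whether the 48 hr response itself differed between KI and WT cells was tested as a difference of the 2 responses. Of the 10 genes, 4 differed in the *Stat5b* line, against 21.3% of all genes: the response of *Eomes* was lower in KI cells, and those of *Tcf7*, *Bcl6*, and *Bach2* were higher. *Prdm1* stood at -0.97 ± 0.36 in that line (adjusted p = 0.023), just under 2-fold, and passed without any 1 of WT replicates 1 and 2 and KI replicate 2 at 0 hr, WT replicate 3 at 48 hr, and KI replicate 1 at 48 hr, and the count ran from 4 to 6 with 1 library left out. The *Stat5a* line had 2 of 10, against 6.28%: the response of *Tcf7* was again higher in KI cells, and that of *Prdm1* was lower, a call that was lost (-0.76, adjusted p = 0.097) without KI replicate 1 at 0 hr. *Eomes* stood at -0.99 ± 0.26 there (adjusted p = 0.0036), just under 2-fold, and was called with all 48 libraries and without any 1 of WT replicates 2 and 3 at 0 hr, WT replicate 3 at 48 hr, or KI replicate 1 at 48 hr (-1.01 to -1.05). *Tcf7* was called in both lines. Its difference was 1.64 ± 0.10 (log2, SE; adjusted p = 2.8e-15) in the *Stat5b* line and 1.11 ± 0.10 (adjusted p = 1.3e-09) in the *Stat5a* line. *Tbx21* did not pass, with differences of -0.33 (adjusted p = 0.21) and 0.03 (adjusted p = 0.95).

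KI and WT cells were then compared at each time. Before IL-2 edgeR called 0 of 10 in the *Stat5a* line (background 0.977%) and 0 of 10 in the *Stat5b* line (7.75%), with 5 at an unadjusted p under 0.05 in each (2604 and 5560 of the 15562 genes), and DESeq2 called 0 and 1 (*Prdm1*, 1.02). At 4 hr edgeR and DESeq2 called 0 of 10 in the *Stat5a* line (6.68%, and 4 at an unadjusted p under 0.05 beside 6025 of 15562 genes). *Id3* passed there when WT replicate 1 was left out (log2 difference of 1.12). That fit kept the shallow WT replicate 2, which had 4.63 RPKM of *Id3*. Without KI replicate 2 the *Id3* difference was 1.01, with 1 KI library that is assumed to vary like the other groups. *Tbx21* was lower and *Bcl6* and *Zeb2* were higher in *Stat5b* KI cells at 4 hr, 3 of 10 against 10.7%. At 24 hr only *Eomes* was called in the *Stat5a* line, lower in KI cells, 1 of 10 against 4.47%, and *Bcl6* (1.09) and *Tbx21* joined it without WT replicate 1, *Bcl6* alone (1.02 and 1.05) without WT or KI replicate 2. For the *Stat5b* line, *Tbx21* was lower and *Bcl6* and *Prdm1* higher at 24 hr, 3 of 10 against 16.7%. At 48 hr the *Stat5b* line had 5 of 10, against 26.4%, with *Tbx21* and *Eomes* lower and *Bcl6*, *Id3*, and *Tcf7* higher in KI cells. The *Stat5a* line had 2 of 10, against 8.7%, with *Eomes* lower and *Bcl6* higher. Some values near 2-fold in the *Stat5b* line crossed it with 1 library left out: *Prdm1* passed at 0 hr without WT replicate 1 or 2 or KI replicate 2 (1.02 to 1.06) and at 4 hr without WT replicate 1 or 2 (1.06 and 1.00), *Zeb2* passed at 24 and 48 hr without replicate 2 of either genotype (1.01 to 1.05), and *Eomes* lost its call at 48 hr without KI replicate 3 (-0.90). The medians over the 10 genes at 48 hr were 0.43 and 0.26 on the log2 scale, against 0.06 and 0 over all genes.

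**Figure D4:**
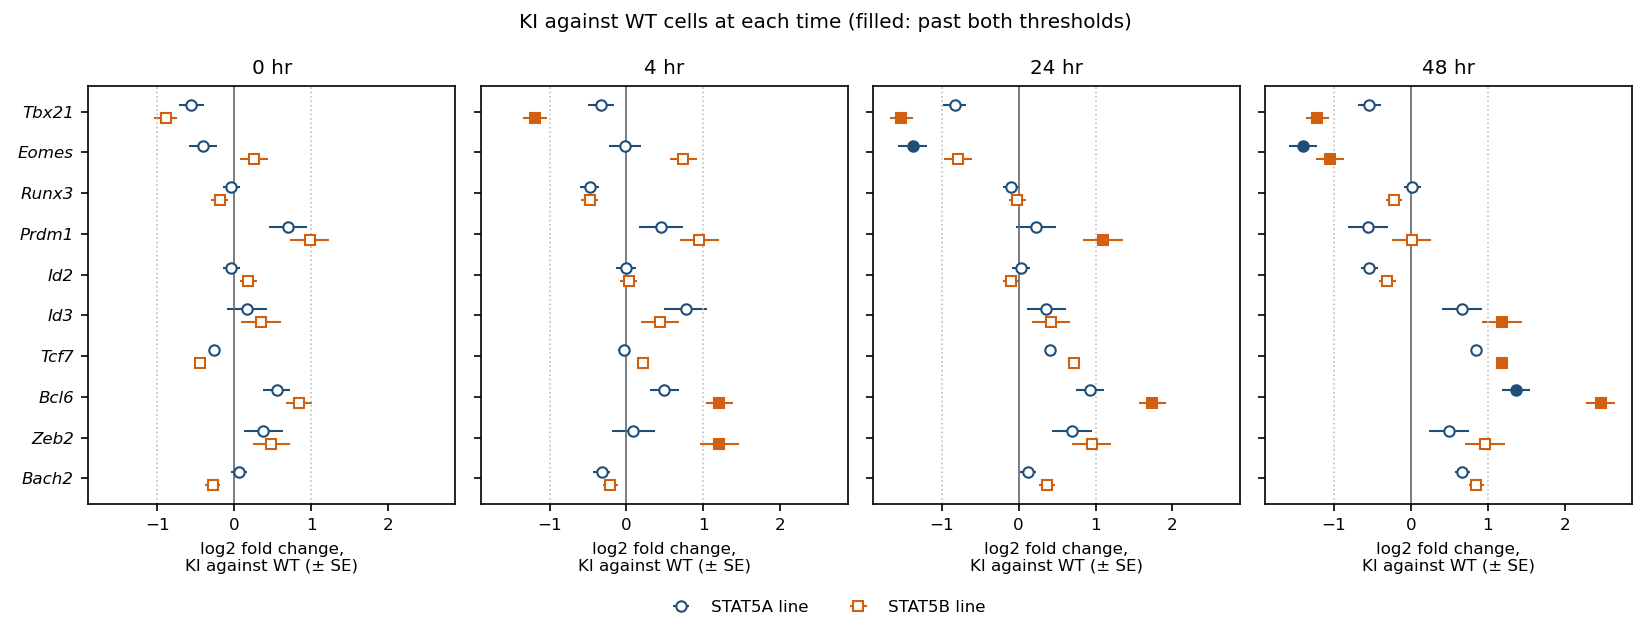
Log2 fold change of KI against WT cells (horizontal axes) for the 10 genes at 0, 4, 24, and 48 hr in the *Stat5a* line (blue circles) and the *Stat5b* line (orange squares). Bars are ± 1 SE, filled symbols passed both thresholds, and dotted lines mark 2-fold differences. *Bcl6* in the *Stat5b* line moves from 0.84 at 0 hr to 2.47 at 48 hr.

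When the KI effects at 48 hr were compared between the lines, 1 of the 10 differed, against 2.09% of all genes. That gene was *Bcl6*, whose KI effect was larger in the *Stat5b* line by 1.10 ± 0.26 (log2, SE; adjusted p = 0.0045), and it fell to 0.97 (adjusted p = 0.028), under the fold threshold, without WT replicate 1 of the *Stat5a* line. The difference for *Tbx21* was -0.68 ± 0.21 (adjusted p = 0.03) and for *Eomes* 0.35 ± 0.26 (adjusted p = 0.43). The other differences ranged from -0.24 (*Runx3*) to 0.57 (*Prdm1*).

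*Tbx21* (chr11:97098007-97115331), the gene of the T-box factor T-bet that drives *Ifng* and cytotoxic genes, rose over the culture with IL-2 in WT cells. It was lower in *Stat5b* KI cells at each time, by 2-fold or more from 4 hr on. WT cells of the *Stat5b* line had 7.94, 11.1, and 9.54 RPKM at 0 hr and 26.3, 26.4, and 25.3 RPKM at 48 hr. KI cells of that line had 5.04, 6.31, and 4.97 RPKM at 0 hr and 13, 13.1, and 10.6 RPKM at 48 hr. Every KI library lay below every WT library at each of the 4 times, and the lowest KI library at 48 hr (10.6 RPKM) was below the highest unstimulated WT library (11.1 RPKM). The log2 difference was -0.89 ± 0.15 at 0 hr (adjusted p = 6.4e-05), under 2-fold, then -1.19 at 4 hr, -1.53 at 24 hr, and -1.22 ± 0.15 at 48 hr (adjusted p = 8.7e-09). The response to 48 hr of IL-2 was 1.36 ± 0.15 in WT and 1.03 ± 0.15 in KI cells, and the latter call was lost with DESeq2 (0.95) and without any 1 of 4 KI libraries (0.92 to 0.99). NK cells also express *Tbx21*, and their part was not tested.

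*Tbx21* of the *Stat5a* line had 4.75, 5.02, and 5.4 RPKM in WT cells at 0 hr and 19.2, 23.1, and 22.2 RPKM at 48 hr. In *Stat5a* KI cells it had 4.32, 3.35, and 2.87 RPKM at 0 hr and 18.6, 14.9, and 14.2 RPKM at 48 hr. The genotypes did not overlap at 0, 24, or 48 hr, yet the differences stayed under 2-fold, at -0.56, -0.83, and -0.54 on the log2 scale (adjusted p = 0.037, 0.00018, and 0.0032). The increase over 48 hr was 1.96 ± 0.16 in WT and 1.99 ± 0.16 in KI cells. Unstimulated WT cells of the *Stat5b* line held more *Tbx21* (mean 9.53 ± 1.59 RPKM, SD, n = 3) than those of the *Stat5a* line (5.06 ± 0.329 RPKM), with no overlap, a difference between lines that was not tested.

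*Eomes* (chr9:118478186-118486132), the other T-box gene, whose product supports memory and the IL-2 receptor β chain, had its lowest WT values at 4 hr and had risen in WT cells of both lines by 48 hr. Its values in *Stat5a* line WT cells were 13.5, 16.9, and 17.5 RPKM at 0 hr, 7.76, 7.23, and 9.9 RPKM at 4 hr, and 62.5, 70.8, and 57.8 RPKM at 48 hr. *Stat5a* KI cells had 13.2, 12, and 11.7 RPKM at 0 hr and 28.3, 24.2, and 25.2 RPKM at 48 hr. WT and KI libraries lay far apart at 48 hr, and the KI mean of 25.9 ± 2.18 RPKM (SD, n = 3) was below the WT mean of 43.1 ± 8.04 RPKM at 24 hr. KI cells differed from WT cells by -1.38 ± 0.19 at 24 hr (adjusted p = 2.9e-06) and by -1.40 ± 0.18 at 48 hr (adjusted p = 1e-07).

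The *Eomes* levels of the *Stat5b* line spanned 20.1 to 40.4 RPKM in KI cells over the whole time course. WT cells had 23.8, 29.4, and 17.4 RPKM at 0 hr and 64.6, 57.9, and 67.3 RPKM at 48 hr. KI cells had 26.9, 37.7, and 25.3 RPKM at 0 hr and 34.4, 40.4, and 25 RPKM at 48 hr. The genotypes overlapped at 0 hr and did not at 48 hr. The 48 hr response was 1.33 ± 0.18 in WT cells and 0.02 ± 0.18 in KI cells (adjusted p = 0.95), and the difference of the responses, -1.31 ± 0.26, was called (adjusted p = 5.2e-05). At 4 hr the order was the opposite, with 14.2, 18.1, and 12.2 RPKM in WT and 26.8, 31.9, and 20.1 RPKM in KI cells (log2 difference 0.74 ± 0.18, adjusted p = 0.0024, under 2-fold). The difference at 48 hr, -1.05 ± 0.18 (adjusted p = 5.3e-06), went to -0.90, under 2-fold, without KI replicate 3, and also fell just short of 2-fold in a fit of only the groups compared.

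*Runx3* (chr4:135120645-135177990), which encodes the factor that represses *Cd4* and opens cytotoxic loci, had the narrowest range of group mean RPKM of the 10 genes. WT cells of the *Stat5a* line had 32.3, 30.1, and 33.1 RPKM at 0 hr and 59.7, 50.9, and 47.4 RPKM at 4 hr, and 38.9, 38.8, and 36.7 RPKM at 48 hr. WT cells of the *Stat5b* line had 37.5, 39.4, and 35.6 RPKM at 0 hr and 51.3, 57.1, and 58.2 RPKM at 4 hr. Both lines thus had their highest WT levels at 4 hr. The log2 changes at 4 hr were 0.87 ± 0.11 (adjusted p = 1.5e-08) and 0.42 ± 0.11 (adjusted p = 0.0016), under 2-fold. KI and WT cells differed at 4 hr by -0.48 in each line (adjusted p = 0.0057 and 0.00081), and by -0.22 to 0.02 at 48 hr. The *Stat5a* line values at 4 hr, 0.87 and -0.48, rest in part on the shallow WT replicate 2. The genotypes were separate at 4 hr in the *Stat5b* line, but in the *Stat5a* line the KI libraries (50.3 and 47.7 RPKM) overlapped WT cells, whose group holds the shallow replicate 2.

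*Prdm1* (chr10:44437174-44528558) encodes Blimp-1, a repressor needed for terminal effector cells and for plasma cells. WT cells of the *Stat5b* line had 1.35, 1.33, and 1.09 RPKM at 0 hr, 0.981, 0.886, and 0.864 RPKM at 24 hr, and 1.6, 1.62, and 1.39 RPKM at 48 hr. KI cells of that line had 2.72, 2.46, and 2.7 RPKM at 0 hr, 2.17, 1.87, and 1.93 RPKM at 24 hr, and 1.94, 1.57, and 1.56 RPKM at 48 hr. KI libraries were above all WT libraries at 0, 4, and 24 hr and overlapped them at 48 hr. The log2 difference was 0.98 ± 0.25 at 0 hr (adjusted p = 0.0042), 0.95 ± 0.25 at 4 hr (adjusted p = 0.0046), 1.10 ± 0.26 at 24 hr (adjusted p = 0.0005), and 0.01 ± 0.25 at 48 hr (adjusted p = 0.98). The plasma cell markers of the same KI libraries summed to 61.5, 77.3, and 73.3 RPKM at 0 hr and to 20.8, 16.3, and 18.1 RPKM at 48 hr, against 12.6, 14.5, and 9.99 RPKM and 1.66, 1.66, and 1.82 RPKM in WT cells. Levels of *Prdm1* and of these markers were higher in the KI libraries at 0 hr, and at 48 hr only the markers differed; their part was not tested.

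A KI library of the *Stat5a* line decided part of the *Prdm1* result. KI replicate 1 at 0 hr had 3.09 RPKM of *Prdm1* and 82.3 RPKM of plasma cell markers, while replicates 2 and 3 had 1.47 and 1.34 RPKM of *Prdm1* and 25.4 and 26.6 RPKM of the markers. WT cells had 1.23, 1.07, and 1.22 RPKM of *Prdm1* at 0 hr. *Prdm1* fell over 48 hr in KI cells by 1.35 ± 0.26 on the log2 scale (adjusted p = 2.6e-05) and by 1.38 over 24 hr, and both values were -0.93 without that library. The difference of the 48 hr responses between KI and WT cells, -1.26 ± 0.36 (adjusted p = 0.0077), became -0.76 and lost its call (adjusted p = 0.097).

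*Id2* (chr12:25093799-25096092) encodes an inhibitor of E proteins that favours effector cells. Its values in *Stat5b* line WT cells were 64.9, 58.2, and 64 RPKM at 0 hr and 108.8, 110.2, and 103.8 RPKM at 48 hr, while KI cells had 79.3, 72.7, and 72.8 RPKM at 0 hr and 99.1, 97.6, and 87 RPKM at 48 hr. The WT groups at 0 and 48 hr did not overlap, and the change of 0.69 ± 0.12 (adjusted p = 1.8e-06) stayed under 2-fold. At 48 hr in the *Stat5a* line, WT cells had 73.5, 91.9, and 93.8 RPKM and KI cells 73.3, 60.2, and 57.3 RPKM. That difference was -0.54 ± 0.11 (adjusted p = 0.00018), with the lowest WT library just above the highest KI library. *Id2* was called in 0 of the 23 comparisons.

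*Zeb2* (chr2:44983512-45117442) is the gene of a repressor active in terminal effector cells that is also made by macrophages and dendritic cells. It fell over the culture with IL-2 in WT and KI cells of both lines. WT cells of the *Stat5b* line had 1.62, 1.93, and 2.05 RPKM at 0 hr, 0.758, 0.829, and 0.932 RPKM at 4 hr, and 0.424, 0.511, and 0.428 RPKM at 48 hr. KI cells of that line had 3.14, 2.79, and 2.32 RPKM at 0 hr, 2.16, 1.97, and 2.02 RPKM at 4 hr, and 1.11, 0.84, and 0.94 RPKM at 48 hr. Every KI library was above every WT library at each time, and the difference was called at 4 hr only (1.21 ± 0.25, adjusted p = 0.00034), with 0.96 ± 0.26 at 48 hr (adjusted p = 0.0016). The 4 hr call was lost when the 48th library was kept in the fit (1.20, adjusted p = 0.12). The macrophage and monocyte markers summed to means of 35.3, 17.3, 7.92, and 3.69 RPKM at 0, 4, 24, and 48 hr in WT cells of this line. In KI cells the means were 140.7, 70.4, 62.4, and 77.8 RPKM, with no lower mean at 48 than at 24 hr, and their part in *Zeb2* was not tested.

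In the *Stat5a* line *Zeb2* had 1.33, 1.68, and 1.48 RPKM in WT and 2.18, 1.91, and 1.89 RPKM in KI cells at 0 hr. At 48 hr they were 0.402, 0.366, and 0.514 RPKM in WT and 0.852, 0.536, and 0.564 RPKM in KI cells. The KI replicate with 0.852 RPKM was replicate 1, which also had the highest sum of macrophage and monocyte markers of its group, 60.8 RPKM. *Zeb2* fell by 1.93 ± 0.26 on the log2 scale in WT and by 1.81 ± 0.26 in KI cells over 48 hr, and KI and WT cells differed by 0.50 ± 0.26 (adjusted p = 0.12).

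*Tcf7* (chr11:52246527-52283383) encodes TCF1, the factor that keeps naive and memory cells able to self-renew. Its level in *Stat5b* line WT cells went from 370, 401, and 393 RPKM at 0 hr to 329, 312, and 304 RPKM at 4 hr, 231, 244, and 214 RPKM at 24 hr, and 145.8, 140.96, and 145.5 RPKM at 48 hr. KI cells had 294, 312, and 300 RPKM at 0 hr, 396, 407, and 355 RPKM at 4 hr, 386, 373, and 400 RPKM at 24 hr, and 381, 354, and 343 RPKM at 48 hr. No 2 WT groups of this line overlapped, and the KI libraries were below WT at 0 hr and above WT from 4 hr on. The log2 difference ran from -0.44 ± 0.07 at 0 hr (adjusted p = 2.4e-05) through 0.21 at 4 hr and 0.72 at 24 hr to 1.19 ± 0.07 at 48 hr (adjusted p = 1.3e-16). WT cells fell by 1.52 ± 0.07 over 48 hr, and KI cells changed by 0.12 ± 0.07 (adjusted p = 0.17).

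WT cells of the *Stat5a* line had 313, 306, and 379 RPKM of *Tcf7* at 0 hr and 180, 159, and 160 RPKM at 48 hr. KI cells had 270, 269, and 312 RPKM at 0 hr and 305, 333, and 321 RPKM at 48 hr. The KI and WT groups overlapped at 0 hr and did not at 48 hr. WT cells fell by 1.13 ± 0.07 on the log2 scale, KI cells differed from their start by -0.02 ± 0.07 (adjusted p = 0.82), and KI exceeded WT cells at 48 hr by 0.85 ± 0.07 (adjusted p = 9.9e-12), under 2-fold. *Tcf7* is also expressed by CD4 T cells, whose 4 markers at 48 hr summed to 5.03, 5.37, and 4.55 RPKM in WT and 12.6, 12.8, and 13.3 RPKM in KI cells of the *Stat5a* line. In the *Stat5b* line the sums were 3.88, 4.01, and 3.4 RPKM in WT and 17.2, 17.7, and 17.2 RPKM in KI cells, and their part in *Tcf7* was not tested. The summed CD8 T cell markers of KI libraries lay below those of WT libraries at 0 hr and above them at 48 hr in both lines, and their part in *Tcf7* was not tested either.

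*Id3* (chr4:136143822-136145392) encodes the E protein inhibitor associated with naive and memory cells. In the *Stat5b* line WT cells it rose from 8.53, 6.54, and 7.21 RPKM at 0 hr to 18.3, 18.2, and 21.8 RPKM at 4 hr and returned to 9.78, 8.9, and 11.6 RPKM at 48 hr. KI cells of that line started at 9.34, 12.3, and 8.53 RPKM, reached 27.4, 31.2, and 24.9 RPKM at 4 hr, and still had 26.9, 25.5, and 22.6 RPKM at 48 hr. The genotypes overlapped at 0 hr and were separate at 4, 24, and 48 hr. WT cells changed by 1.23 ± 0.26 at 4 hr (adjusted p = 0.00016) and by 0.35 ± 0.26 at 48 hr (adjusted p = 0.24), while KI cells were up by 1.32 ± 0.26 and 1.18 ± 0.26 (adjusted p = 6.3e-05 and 0.00023). KI exceeded WT cells at 48 hr by 1.19 ± 0.26 (adjusted p = 0.00016), and the difference of the 48 hr responses, 0.83 ± 0.37, did not pass (adjusted p = 0.059) but did (1.02, adjusted p = 0.034) without KI replicate 2 at 0 hr.

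The *Stat5a* line WT libraries disagreed on *Id3* before IL-2, with 17.9, 22.1, and 6.81 RPKM, and at 4 hr, with 22.9, 4.63, and 16.9 RPKM, the low value being the shallow replicate 2. KI cells had 16.4, 19.1, and 18.2 RPKM at 0 hr and 23.9, 25.9, and 23.2 RPKM at 48 hr, when WT cells had 17.8, 14, and 11.5 RPKM. KI and WT cells did not overlap at 48 hr, with a difference of 0.66 ± 0.26 (adjusted p = 0.034), under 2-fold.

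*Bcl6* (chr16:23965050-23988866), the gene of a repressor that supports memory CD8+ and follicular helper T cells and germinal center B cells, had the widest range of group means. In the *Stat5b* line WT cells it fell from 6.07, 5.3, and 5.7 RPKM at 0 hr to 3.53, 2.76, and 3.25 RPKM at 4 hr, 1.4, 1.29, and 1.52 RPKM at 24 hr, and 0.724, 0.751, and 0.718 RPKM at 48 hr. KI cells went from 10.5, 11.7, and 10.1 RPKM through 8.15, 8.23, and 6.95 RPKM and 4.84, 4.49, and 5.08 RPKM to 4.53, 4.31, and 4.39 RPKM. KI libraries exceeded WT libraries at each time, and at 48 hr the 2 groups were 5.54-fold apart with little spread. The log2 difference grew from 0.84 ± 0.17 at 0 hr (adjusted p = 0.00043) to 1.21, 1.74, and 2.47 ± 0.19 at 48 hr (adjusted p = 1e-13). WT cells fell by 3.05 ± 0.19 and KI cells by 1.42 ± 0.17 over 48 hr, and that difference, 1.63 ± 0.25, was called (adjusted p = 1.3e-06). The 9 B cell markers of this line changed over 48 hr by medians of -2.93 in WT and -1.25 in KI cells. Their difference of responses had a median of 1.67, with 8 of 9 called higher, and their part in *Bcl6* was not tested.

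In the *Stat5a* line *Bcl6* went from 7.54, 7.53, and 5.4 RPKM to 1.28, 1.21, and 0.822 RPKM over 48 hr in WT cells and from 11, 9.51, and 10.2 RPKM to 3.1, 2.83, and 3.22 RPKM in KI cells. The genotypes were separate at each time. WT cells fell by 2.76 ± 0.19 and KI cells by 1.94 ± 0.18, and KI exceeded WT cells at 48 hr by 1.37 ± 0.18 (adjusted p = 1.4e-07). The 9 B cell markers of this line changed over 48 hr by medians of -2.67 in WT and -1.80 in KI cells. Their difference of responses had a median of 0.82, with 0 of 9 called. WT replicate 3, lowest in *Bcl6* at 0 and 48 hr, was also lowest in B cell markers, with 59.1 RPKM against 158.9 and 173.4 RPKM at 0 hr. At each time both the B cell markers and *Bcl6* were higher in the KI than in the WT libraries of a line, while libraries of different times or of 1 group did not always keep that order, and the part of those cells in the *Bcl6* values was not tested.

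**Figure D5:**
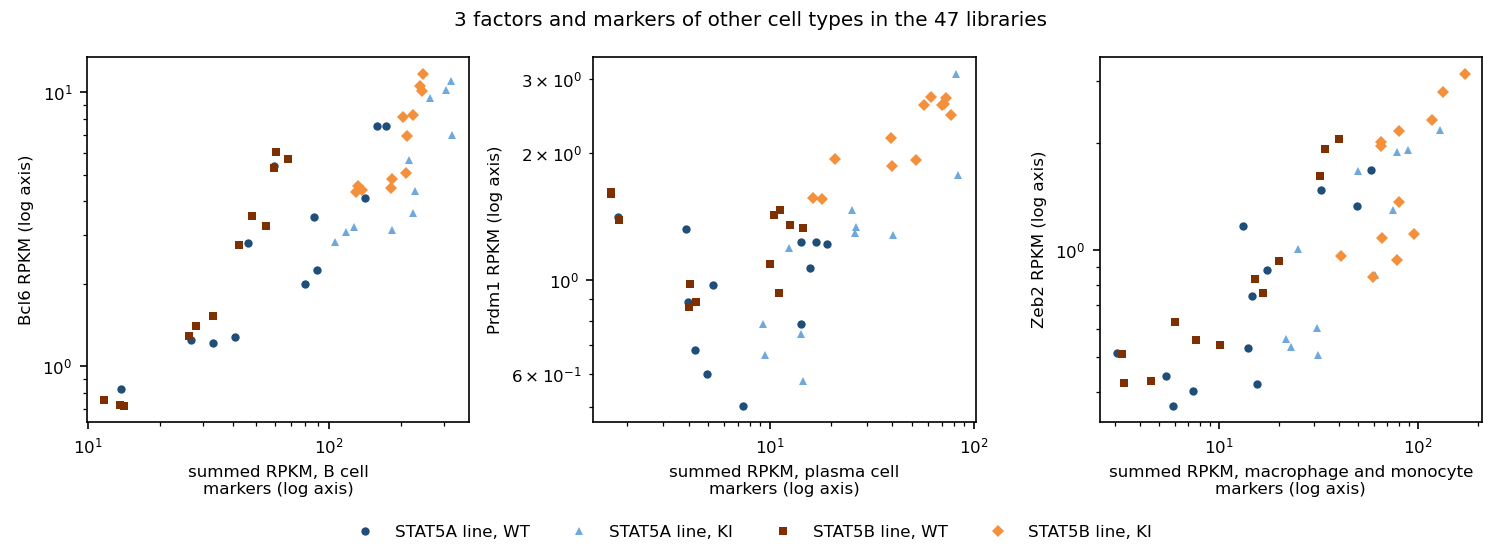
RPKM of *Bcl6*, *Prdm1*, and *Zeb2* (vertical, log axes) against the summed RPKM of B cell, plasma cell, and macrophage and monocyte markers (horizontal, log axes) in the 47 libraries, which differ in depth and time of culture. Symbols mark the line and genotype. At each time the KI libraries have more B cell marker RNA and more *Bcl6* than the WT libraries of their line, while across times the order can differ. In unstimulated WT cells of the *Stat5a* line, replicate 1 has 7.54 RPKM of *Bcl6* at 158.9 RPKM of markers, and in *Stat5b* KI cells given IL-2 for 48 hr, replicate 1 has 4.53 RPKM at 132.7 RPKM. Unstimulated WT cells of the *Stat5b* line have less marker RNA (59 to 68 RPKM) than its KI cells at 24 hr (181.3 to 208.6 RPKM) and more *Bcl6* (5.3 to 6.07 against 4.49 to 5.08 RPKM). These examples set different times of culture side by side, and *Bcl6* fell over time in WT and KI cells of both lines. The part of B cells in *Bcl6* was not tested.

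*Bach2* (chr4:32238413-32586109) encodes a repressor that holds back effector genes and maintains naive and memory cells. Its values in *Stat5b* line WT cells were 17.7, 16.8, and 17.4 RPKM at 0 hr, 36, 33.4, and 31.4 RPKM at 4 hr, and 8.27, 7.88, and 8.11 RPKM at 48 hr. KI cells had 15.2, 14.9, and 15.4 RPKM at 0 hr, 32.3, 28.1, and 31.4 RPKM at 4 hr, and 16.8, 14.9, and 16.1 RPKM at 48 hr. Both genotypes were highest at 4 hr, and KI cells came back to their starting level while WT cells went below it. The 4 hr changes were 0.81 ± 0.10 in WT and 0.87 ± 0.10 in KI cells (adjusted p = 1.6e-08 and 4e-09), under 2-fold. At 48 hr WT cells had fallen by 1.19 ± 0.10 (adjusted p = 4.6e-13) and KI cells differed from 0 hr by -0.06 ± 0.10 (adjusted p = 0.64), and the difference of these responses was 1.13 ± 0.14 (adjusted p = 2e-08).

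The *Stat5a* line gave *Bach2* values of 19, 17.9, and 16 RPKM at 0 hr and 9.76, 8.44, and 9.35 RPKM at 48 hr in WT cells. KI cells had 16.3, 19.6, and 20.2 RPKM at 0 hr and 14.6, 15.6, and 16.7 RPKM at 48 hr. The genotypes overlapped before IL-2 and were separate at 48 hr, with KI above WT by 0.67 ± 0.10 (adjusted p = 1.1e-06). Over 48 hr *Bach2* changed by -1.07 ± 0.10 in WT and by -0.45 ± 0.10 in KI cells (adjusted p = 7.9e-12 and 0.00015). The difference of the responses, 0.61 ± 0.14 (adjusted p = 0.0011), was under 2-fold.

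Other genes of these programs, in lists chosen by name with earlier results of these data known, were examined at 48 hr. The effector products and receptors, 14 of which were measured, had 4 lower and 0 higher in *Stat5a* KI cells and 5 lower and 3 higher in *Stat5b* KI cells, with medians of -0.27 and -0.39 on the log2 scale. As for each of the lists that follow, the share called among all genes in the same comparison was 8.7% for the *Stat5a* line and 26.4% for the *Stat5b* line. *Ifng*, encoding interferon-γ and a target of T-bet, differed by -2.72 ± 0.34 and -3.16 ± 0.35, and *Gzmb*, encoding granzyme B, by -2.43 ± 0.31 and -4.35 ± 0.34 (*Stat5a* and *Stat5b* line). *Il12rb2*, a chain of the IL-12 receptor, differed by -1.54 ± 0.21 and -2.57 ± 0.22. The 3 that were higher in *Stat5b* KI cells were *Gzmk* (2.58 ± 0.65), *Ccl5* (1.12 ± 0.27), and *Klrg1* (1.05 ± 0.41). In WT cells *Gzmb* rose by 7.44 and 7.24 over 48 hr and *Il12rb2* by 3.62 and 3.63, while *Ccl5*, *Cx3cr1*, *S1pr5*, and *Klrg1* fell in both lines.

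Naive and memory surface genes came next. Of 10 measured, 3 were higher and 1 lower in *Stat5b* KI cells (median 0.77), and 0 passed in *Stat5a* KI cells (median 0.41). *Il7r*, the receptor for the survival cytokine IL-7, was higher by 2.01 ± 0.18 and *S1pr1*, which guides exit from lymphoid tissue, by 1.51 ± 0.13. *Cxcr5* was higher by 1.64 ± 0.22 and is also a B cell receptor, and *Ly6c2* was lower, at -1.35 ± 0.24. Of the 15 other naive and memory-associated factors, 4 were higher in *Stat5b* KI cells (median 0.62) and 1, *Klf2*, in *Stat5a* KI cells (median 0.25), counts that were close to the shares among all genes. *Klf2*, a factor of quiescent T cells, was higher by 1.48 ± 0.15 (*Stat5b*) and 1.02 ± 0.14 (*Stat5a*), *Klf3* by 1.20 ± 0.17 in the *Stat5b* line, and *Tcf7l2*, a relative of *Tcf7*, by 1.64 ± 0.35 there.

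Among 13 other effector-associated factors, 2 were higher and 3 lower in *Stat5b* KI cells (median -0.45), and 2 higher and 4 lower in *Stat5a* KI cells (median -0.58). *Irf4*, which scales effector expansion, was lower in both, at -1.46 ± 0.21 (*Stat5a* line, given first in each pair here) and -1.54 ± 0.21 (*Stat5b* line), as was *Bhlhe40*, at -1.19 ± 0.15 and -1.21 ± 0.15. *Nfil3* stood at -1.02 ± 0.18 and -1.85 ± 0.19. *Maf* (1.17 ± 0.27 and 2.10 ± 0.27) and *Rora* (1.03 ± 0.16 and 1.51 ± 0.16) were higher in both lines, and *Maf* is also expressed by macrophages. Of the 6 exhaustion-associated factors, *Tox2* (1.75 ± 0.69 and 4.32 ± 0.65) was higher and *Nr4a3* (-1.20 ± 0.24 and -2.10 ± 0.25) lower in both lines, and *Tox* was higher (1.47 ± 0.12) and *Nr4a1* lower (-1.06 ± 0.18) in the *Stat5b* line. The medians of that list were 0.08 and -0.04.

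The partners of the ID proteins and of RUNX3 were few. Of the E proteins and *Id1*, 4 genes, *Tcf4* was higher in both lines (1.34 ± 0.27 and 2.51 ± 0.28) and *Id1* in the *Stat5b* line (1.30 ± 0.33). *Tcf4* is highly expressed by B cells and plasmacytoid dendritic cells. None of *Runx1*, *Runx2*, and *Cbfb* was called between KI and WT cells at 48 hr (medians -0.39 and -0.54), and *Cbfb*, the shared partner of RUNX proteins, rose over 48 hr in WT cells of the *Stat5b* line (1.04 ± 0.10) with 0.81 ± 0.10 in the *Stat5a* line.

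For each factor the 3 genes whose 16 group means on the log2(RPKM + 1) scale had the highest Pearson r were listed, out of 10730 genes with a mean of at least 1 RPKM. The groups share times, lines, and libraries, so r is a description over 16 points. *Tbx21* was most like *F2r* (0.972), *Il18rap* (0.958), and *Samd3* (0.958), *Eomes* like *Lgalsl* (0.976), *Pcgf5* (0.956), and *Mboat1* (0.950), and *Runx3* like *Gpr146* (0.937), *Tnfrsf22* (0.931), and *Gimap3* (0.930). *Bcl6* was most like *Cd81* (0.991), *Tcf4* (0.990), and *Cybb* (0.990), which are abundant in B or myeloid cells. *Zeb2* followed *4930506M07Rik* (0.979), *Skap2* (0.979), and *Zfp366* (0.978), and *Prdm1* followed *Itpripl2* (0.929), *Entpd1* (0.923), and *Rnf149* (0.907). *Tcf7* was most like *Nlk* (0.969), *Atg14* (0.968), and *Pacsin1* (0.963), and *Bach2* like *Afap1* (0.982), *Ubxn7* (0.981), and *Tmem63b* (0.980). *Id2* and *Id3* had weaker partners, *Arf6* (0.868), *Hist2h2ac* (0.854), and *Dus2* (0.846) for *Id2* and *Cnn3* (0.889), *Smpd2* (0.881), and *Plod1* (0.876) for *Id3*. Among the 10 factors the closest pair was *Bcl6* and *Zeb2* (r = 0.94) and the most opposed was *Bcl6* and *Tbx21* (r = -0.90), over the same 16 groups.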

How the data were processed

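RNA was measured in 48 libraries of splenic CD8+ T cells, of which 47 were used. Per the study's methods, 50 bp single-end reads were mapped with TopHat 2.0.11 to mm10/GRCm38, and uniquely mapped reads were counted on RefSeq transcripts. The counting program and the use of strand are not given in the sources used here. The authors deposited raw read counts for each of 31682 transcripts, without normalization, and RPKM values made from these counts, transcript length, and mapped reads. For each of the 23992 symbols the longest transcript was taken, and counts of isoforms were not summed because a shared read appears in each. Of the 10 factors, *Eomes* has 2 transcripts and the others 1.

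Counts were fitted in R 4.3.3 with edgeR 4.0.16 (TMM scaling, filterByExpr with a minimum count of 10, glmQLFit and glmQLFTest) in 1 fit of the 16 groups over 15562 genes, with no covariate. A call needed a 2-fold change and a p that was no higher than 0.05 once adjusted over all genes (Benjamini-Hochberg). A standard error is the log2 fold change divided by the square root of its F statistic. Levels in RPKM carry no TMM scaling and were scaled to all mapped reads. The fit scaled to reads on the longest transcripts (44.9% to 84.4% of mapped reads). Folds of RPKM means therefore differ from fitted folds, at times in sign. At 4 hr in the *Stat5a* line *Eomes* had means of 8.3 RPKM in WT and 10.4 RPKM in KI cells, without overlap. Its fitted log2 difference was -0.02. Overlap of libraries was read from RPKM. RPKM was not tested. The pattern search used a pseudocount of 1 RPKM. Floors cover counting error only. The procedure was tested on simulated data.

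Libraries of the same group always differed by more than sampling noise (lowest chi-square 4.83 per gene), so none was counted as a duplicate. Labels give replicate numbers. Deviations of same-numbered libraries correlated above 0.1 in every pair for the 24 hr (0.207, 0.276, and 0.420) and 48 hr (0.169, 0.116, and 0.193) against 0 hr comparisons of *Stat5a* line WT cells and in no other comparison with 3 pairs, and the replicate block changed no call of the 10 factors there.

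All 10 factors, their 3 most similar genes, *Stat5a*, *Stat5b*, and up to 3 called genes in each direction of each gene list were eligible to be named. The members and lists were chosen with earlier results of these data known. DESeq2 1.42.0 and other alternatives are given in the closing section. Promoters and coordinates are from RefSeq (GRCm38.p6) and exons from GENCODE M21. Counts over the erythroid list are not reported here, and ChIP-seq of the study was not analysed here.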

Additional observations from a re-analysis of the deposited data

Results flagged for a closer look

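The following values were singled out because an effect in one group of cells differed from the same effect in another by a direct test of the difference (edgeR quasi-likelihood, adjusted p of at most 0.05 and at least 2-fold). The change of *Tcf7* over 48 hr of IL-2 was higher in KI than in WT cells by 1.11 in the *Stat5a* line and by 1.64 in the *Stat5b* line. The change of *Prdm1* was lower in KI cells of the *Stat5a* line, at -1.26, and lost its call (-0.76, adjusted p = 0.097) without KI replicate 1 at 0 hr. In the *Stat5b* line the changes of *Bcl6* and *Bach2* were higher in KI cells, by 1.63 and 1.13, and that of *Eomes* was lower, at -1.31. The KI effect on *Bcl6* at 48 hr was higher in the *Stat5b* line than in the *Stat5a* line by 1.10, and by 0.97, under 2-fold, without *Stat5a* line WT replicate 1 at 48 hr. All values are on the log2 scale, and outlying libraries were not tested for.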

How the results depend on the processing

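Of 57 called results of single factors, 49 kept their call in each alternative run, and 0 of 783 recomputed values reversed a direction. DESeq2, its size factors in edgeR, and a fit of only the groups compared each called 1 factor instead of 0 between *Stat5b* KI and WT cells at 0 hr (*Prdm1*, 1.02, 1.02, and 1.01). With all 48 libraries 2 factors instead of 0 were called over 4 hr in *Stat5a* KI cells, and 1 instead of 0 between KI and WT cells of that line at 4 hr. The replicate block gave 1 instead of 0 in *Stat5a* KI cells at 4 hr (*Bcl6*, -1.01) and changed no other count of called factors by more than 1.5 times; over all genes it moved the share called between *Stat5a* KI and WT cells at 0 hr from 0.977% to 1.5%. Leaving out 1 library gave 0 to 3 called factors after 4 hr in *Stat5a* line WT cells and 2 to 4 in those of the *Stat5b* line, 3 to 5 in *Stat5b* line WT cells at 24 hr, 0 to 2 in *Stat5a* KI cells at 4 hr, 0 to 1 and 1 to 3 between KI and WT cells of the *Stat5a* line at 4 and 24 hr, 0 to 1 of the *Stat5b* line at 0 hr, 1 to 3 for the difference of responses in the *Stat5a* line, and 0 to 1 for the difference between lines. The cause of these changes was not tested.

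Over all genes, the count of calls moved by more than 1.5 times, or its split by over 10 points, mainly with all 48 libraries: 2776 became 4432 in *Stat5a* KI cells at 4 hr (1100 higher became 3071), 0.977% of genes became 0.149%, 1040 calls became 2669 (343 higher became 2537), and 695 became 449 between *Stat5a* KI and WT cells at 0, 4, and 24 hr, 1206 became 717 between *Stat5b* KI and WT cells at 0 hr, 978 became 606 for the *Stat5a* difference of responses, and 325 became 86 for the difference between lines. Fits of only the groups compared gave 1940 in place of 3365 calls in *Stat5a* line WT cells at 4 hr, 0.00718% in place of 0.977% of genes and 0 in place of 1040 calls between *Stat5a* KI and WT cells at 0 and 4 hr, and 626 in place of 325 between lines. The size factors of DESeq2 shifted the median of all genes by -0.103 (WT) and -0.105 (KI) for 48 hr of IL-2 in the *Stat5a* line and by -0.102 for 4 hr in *Stat5b* KI cells.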
